A study of Homo sapiens with 2 samples.

Results

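The oxidative phosphorylation subunits were examined in PC3 cells, an established line from a prostate cancer metastasis, after knockdown of the transcriptional coactivator SUB1. Member probes were those for genes whose name on the array begins with NDUFA, NDUFB, NDUFC, NDUFS, NDUFV, SDHA, SDHB, SDHC, SDHD, UQCR, COX4 to COX8 or ATP5, and names of assembly factors (NDUFAF, SDHAF) were left out. This gave 124 of 41000 probes, for 86 gene names: 54 probes of complex I, 12 of complex II, 10 of complex III, 24 of complex IV and 24 of complex V. The 3 probes of NDUFA12L were left out as well, because RefSeq now names that gene NDUFAF2, an assembly factor. Of the 124 probes, 115 were for subunits, 4 for pseudogenes of SDHA (SDHALP1, SDHALP2, SDHAP3) and 5 for genes that share a prefix but are not known as subunits (COX4NB, COX7A2L, ATP5S). RefSeq gives a newer symbol for 22 of the 86 names, among them COXFA4 for NDUFA4, so that a grouping by prefix counts NDUFA4 with complex I.

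The study used 2 dual-colour Agilent arrays on 1 slide. One array compared PC3 cells given SUB1 siRNA 1 (Cy5) with cells given Non-T siRNA, a non-targeting control duplex (Cy3), and the other compared cells given SUB1 siRNA 2 with Non-T siRNA in the same dyes. Harvest was at 72 h, counted from the first of the transfections. With 1 array per siRNA and the dyes never exchanged, dye bias and knockdown cannot be told apart for a single probe, and whether both arrays carried the same Non-T extract is not stated.

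Oxidative phosphorylation takes place in the inner mitochondrial membrane. Complexes I and II pass electrons from NADH and succinate to ubiquinone, complex III passes them on to cytochrome c, and complex IV passes them to oxygen. Complexes I, III and IV pump protons, and complex V (ATP synthase) uses the returning protons to make ATP. Most subunits are encoded in the nucleus and a few in mitochondrial DNA, and complex II is encoded in the nucleus alone.

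Promoters of nuclear subunit genes are known for sites of the activators NRF1, GABP (an ETS factor) and YY1. RefSeq promoters (GRCh38.p14, 250 bases before to 50 after the start) were at hand for 66 of the 80 current symbols of the subunits. The letters GCGCANGCG (NRF1 core) stood on either strand in 20 of these 66 promoters (30.3%) against 1746 of 15843 promoters of protein-coding genes. The letters CCGGAAG (ETS core) stood in 19 (28.8%) against 14.2%, and AAGATGGC (YY1 core) in 11 (16.7%) against 3.91%. No 2 motifs overlapped in a subunit promoter, and at least 1 of the 3 stood in 38 promoters (57.6%) against 25.5% of all. The 120 bases before the start are shown for 3 genes of the results below. ATP5L was taken because it had the lowest ratios of all members with siRNA 2. NDUFS1 and SDHA were taken from the genes with both probes below 0 with both siRNAs, a trait shared by NDUFA10, UQCR and UQCRFS1 among others. Capitals mark the NRF1 core, which is found 3 times for SDHA (chr5:218200-218319, plus strand), while none of the 3 motifs is in these 120 bases of ATP5L (ATP5MG in RefSeq, chr11:118401486-118401605, plus strand) or of NDUFS1 (chr2:206159445-206159564, minus strand), whose 300-base promoters hold the ETS core elsewhere.
ATP5L: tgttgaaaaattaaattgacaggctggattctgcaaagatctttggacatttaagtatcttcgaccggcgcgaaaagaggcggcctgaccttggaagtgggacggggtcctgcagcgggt
NDUFS1: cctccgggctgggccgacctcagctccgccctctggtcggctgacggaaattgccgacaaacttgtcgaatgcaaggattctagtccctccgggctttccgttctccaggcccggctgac
SDHA: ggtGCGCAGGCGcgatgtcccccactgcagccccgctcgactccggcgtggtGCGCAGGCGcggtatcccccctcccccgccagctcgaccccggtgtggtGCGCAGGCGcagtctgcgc

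SUB1 itself was checked first. Its 4 probes read 7.42% to 28.6% of the Non-T level with siRNA 1 and 8.85% to 33.8% with siRNA 2. Of the 25673 probes tested, those kept by the filter given below, 3 of these 4 were the only ones past an adjusted p of 0.05 (limma, mean of both siRNAs against 0). All 5 markers of the epithelial line (KRT8, KRT18, CDH1, VIM and TACSTD1, now EPCAM) had a probe well above background in every channel. PTPRC and COL1A2, markers of leukocytes and fibroblasts, were not above background, whereas COL1A1 and PECAM1 had a probe above it in every channel. Of all probes, 25673 lay clearly above background in Cy3 or Cy5 on both arrays and were kept, with median log2 ratios of 0.014 (siRNA 1) and 0.015 (siRNA 2). The 209 kept probes printed at 10 spots had a median SD between spots of 0.078 and 0.074, which is the only replicate error that either array gives. Each member had 1 spot per array.

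Of the 124 member probes, 117 (82 gene names) were kept: 52, 12, 10, 20 and 23 for complexes I to V. The 7 left out were 2 of complex I (NDUFA4L2 and 1 of 2 NDUFS4 probes), 4 of complex IV (COX4I2, COX7A1, COX7B2 and 1 of 2 COX6B2 probes) and 1 of 2 ATP5F1 probes. A further 2 kept probes, 1 of COX6A1 and that of SDHALP2, were well above background only in Cy5, so no fold is given for them. With siRNA 1 no member was at least 2-fold higher (0.191% of all kept probes were) and none at least 2-fold lower (0.557% of all). With siRNA 2 again none was 2-fold higher (0.526% of all), while 2 were 2-fold lower (0.923% of all), and both were probes of ATP5L. At 1.5-fold with siRNA 1, 1 member was higher, an NDUFC2 probe (2.21% of all), and 1 lower, a COX4I1 probe (2.92% of all). At 1.5-fold with siRNA 2, the same NDUFC2 probe was higher (3.19% of all) and 6 probes were lower (3.95% of all), 2 each of ATP5L and NDUFS1 and 1 each of ATP5B and ATP5G3. The 6 are 5.13% of the members, and 4 of them belong to complex V. The balance of these counts turned with the scaling: without loess, with median centring of each array, 17 members were 1.5-fold higher and 0 lower with siRNA 1, and 8 were higher and 2 lower with siRNA 2.

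**Figure D1:**
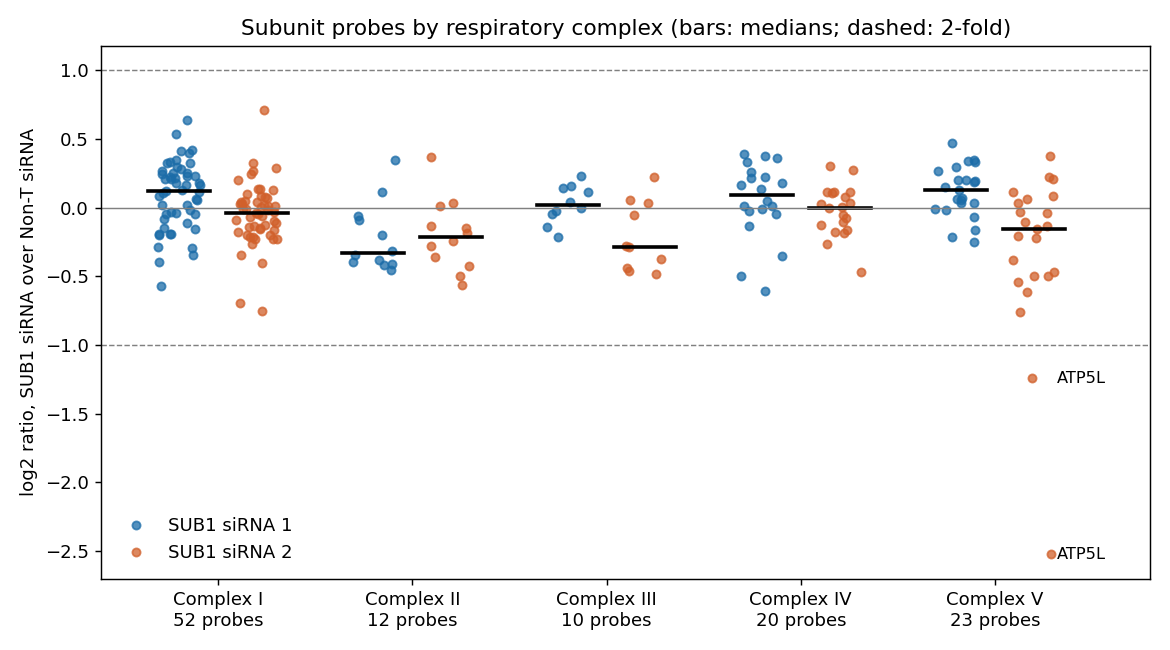
Knockdown over control as a log2 ratio (SUB1 siRNA to Non-T siRNA, y axis) for each kept member probe, grouped by complex (x axis), with SUB1 siRNA 1 in blue and SUB1 siRNA 2 in orange, 1 array each; black bars are medians and dashed lines mark 2-fold. The 2 ATP5L probes with siRNA 2 lie at -1.24 and -2.52, below all other members.

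The limma test of the mean ratio over both siRNAs called no member at an adjusted p of 0.05. Over all kept probes it called 0 higher (0%) and 3 lower (0.0117%), all SUB1. The lowest adjusted p among members was 0.104 (NDUFC2). At an unadjusted p under 0.05, 11 members were higher (9.4%; 10.7% of all kept probes) and 15 lower (12.8%, against 2702 of all 25673, or 10.5%), shares near those of all probes. The test has 2 arrays and leaves out the spread of the control.

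ATP5L, which encodes subunit g of the membrane part of ATP synthase, was the member with the lowest ratio. Its probe at chr11:117784978-117785037 (hg18, the build of the array) had a normalised log2 signal of 14.83 in Non-T cells and 14.88 with siRNA 1 on the first array, and of 14.94 in Non-T cells and 12.41 with siRNA 2 on the second. The signal with siRNA 2 was far below the 3 others, which lay between 14.83 and 14.94. In bulk RNA of this kind, fewer cells with a transcript and less of it per cell cannot be told apart. The log2 ratios were 0.056 and -2.52, so that 104% of the Non-T level was left with siRNA 1 and 17.4% with siRNA 2. Among the 25673 kept probes it ranked 4 from the lowest with siRNA 2 and 14763 with siRNA 1.

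The second, dimmer ATP5L probe, at chr11:117785210-117785269 (hg18), had log2 signals of 9.52 (Non-T) and 9.72 (siRNA 1) on the first array, and of 9.49 (Non-T) and 8.25 (siRNA 2) on the second. Its log2 ratios were 0.20 and -1.24, or 42.3% of the Non-T level left with siRNA 2, at rank 103 from the lowest. A probe with no gene name on the array, THC2736233, is described there as ATP synthase subunit g and placed at chr11:63358770-63358829 (hg18), away from the gene. It read 0.28 with siRNA 1 and -1.23 with siRNA 2. All 3 probes thus read near or above the control with siRNA 1 and past 2-fold below it with siRNA 2. RefSeq names 8 pseudogenes after ATP5MG, and with no probe sequences at hand it was not tested which transcripts each probe can bind. In the limma test the 2 ATP5L probes had mean log2 ratios of -1.23 ± 0.61 and -0.52 ± 0.35 (SE; adjusted p = 0.317 and 0.444), and no test of the difference between the siRNAs could be made with 1 array each. UBE4A, a gene beside ATP5L on chromosome 11, read 0.29 with siRNA 1 and -0.13 with siRNA 2.

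**Figure D2:**
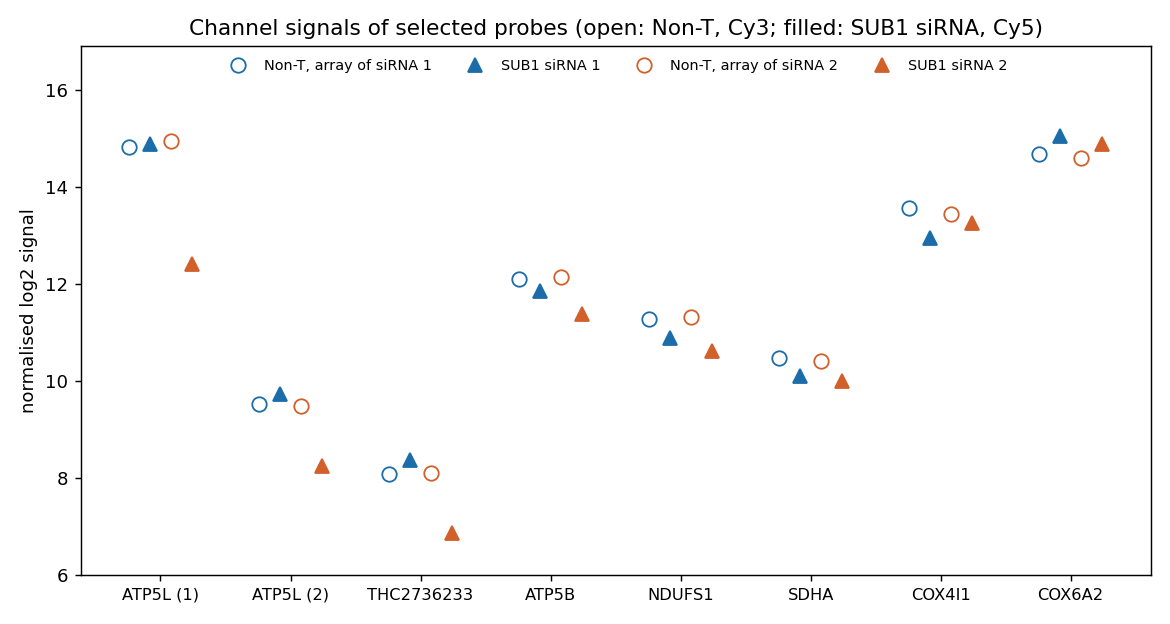
Normalised log2 signal (y axis) of 8 probes (x axis) in the 4 channels: open circles are Non-T siRNA (Cy3), filled triangles SUB1 siRNA (Cy5), blue the array of siRNA 1 and orange that of siRNA 2. For ATP5L (1) the orange triangle stands at 12.41 and the other 3 points between 14.83 and 14.94.

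Complex V, with ATP5L counted, was mostly lower with siRNA 2 than with siRNA 1. With siRNA 1 the 23 probes had a median log2 ratio of 0.13 and 17 were above 0, and with siRNA 2 the median was -0.16 and 16 were below 0. The ratio with siRNA 2 was below that with siRNA 1 for 22 of 23 probes, and for all 21 probes of subunits; the exception was a probe of ATP5S (DMAC2L in RefSeq), which is not known as a subunit. Without ATP5L the medians of the 21 probes left were 0.13 and -0.14. Of these, 14 were below 0 with siRNA 2 and 20 were lower with siRNA 2 than with siRNA 1. Relative to the median of all kept probes complex V stood at 0.11 and -0.17, and at 0.034 and -0.33 with 1 probe per gene name.

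The F1 head, which carries the catalytic sites, showed the widest gap. ATP5B, the catalytic beta subunit, had log2 signals of 12.10 (Non-T) and 11.85 (siRNA 1), and of 12.14 (Non-T) and 11.39 (siRNA 2), or log2 ratios of -0.25 and -0.76 (59.1% left with siRNA 2). ATP5A1, the alpha subunit, read 0.061 and -0.47, and ATP5C1, the gamma subunit of the central stalk, -0.016 and -0.54. The ATP5D (delta) probes read 0.27 and 0.20 with siRNA 1 and -0.20 and -0.50 with siRNA 2. ATP5E (epsilon) was the only F1 gene above 0 with siRNA 2, at 0.11 and 0.21, and it stood at 0.34 and 0.35 with siRNA 1. The 7 F1 probes had medians of 0.20 and -0.47.

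In the ring of c subunits (ATP5G1, ATP5G2, ATP5G3, which encode the same mature protein), the bright ATP5G3 probe read 0.032 and -0.61, while its dim second probe, at a log2 intensity of 6.77 against 14.8, read 0.33 and 0.030. ATP5G1 read -0.010 and -0.38, and ATP5G2 0.15 and -0.030. The 4 probes of the peripheral stalk, which holds the head still, had medians of -0.0020 and -0.19, with ATP5F1 lowest at -0.16 and -0.50. Subunits e and f of the membrane part, the neighbours of subunit g, were not low: ATP5I read 0.13 and 0.19 with siRNA 1 and 0.061 and 0.084 with siRNA 2, and ATP5J2 read 0.47 and 0.29, then 0.38 and 0.22. ATP5J2 had the highest mean of complex V (0.42 ± 0.096, SE; adjusted p = 0.133 in limma).

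**Figure D3:**
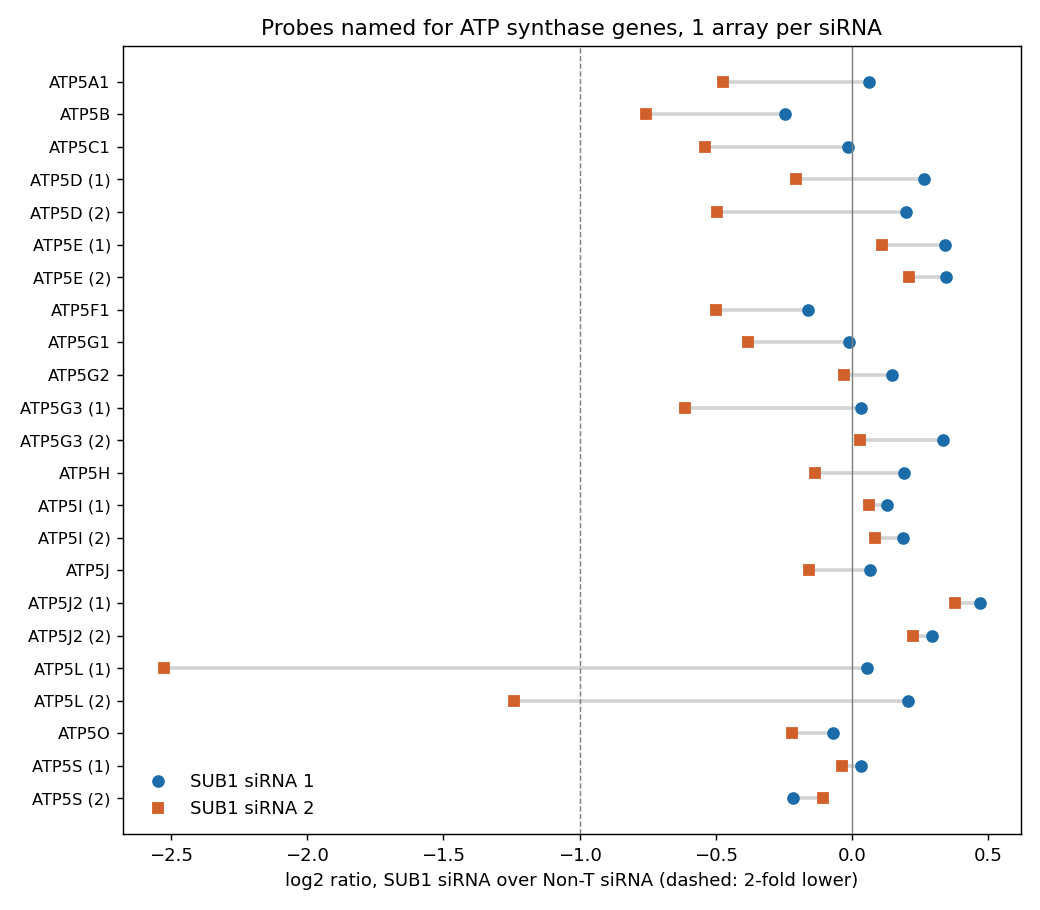
Log2 ratio over Non-T siRNA (x axis) of each of the 23 kept probes of ATP5 genes (y axis; numbers in brackets tell probes of 1 gene apart), with SUB1 siRNA 1 as blue circles and SUB1 siRNA 2 as orange squares, joined by a grey line; the dashed line is 2-fold lower. The square lies left of the circle in all rows but the last, ATP5S (2).

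Complex I had 52 kept probes, with median log2 ratios of 0.12 (34 above 0) with siRNA 1 and -0.038 (22 above 0) with siRNA 2. The 7 genes of its catalytic core, which hold the flavin and the iron-sulphur clusters, gave 9 probes. With siRNA 1 these ran from -0.40 to 0.30, and 5 were above 0; with siRNA 2 all 9 were below 0, from -0.76 to -0.089. The 43 probes of the accessory subunits had medians of 0.13 and 0.0022, with 22 above 0 with siRNA 2.

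Within the core, NDUFS1, the largest iron-sulphur subunit, was the lowest with both siRNAs. Its brighter probe had log2 signals of 11.28 (Non-T) and 10.88 (siRNA 1), and of 11.32 (Non-T) and 10.62 (siRNA 2). The log2 ratios of its 2 probes were -0.40 and -0.35 with siRNA 1 and -0.70 and -0.76 with siRNA 2, so that both probes were lower in both knockdown channels. Their means were -0.55 ± 0.12 and -0.55 ± 0.13 (SE; adjusted p = 0.128 and 0.141 in limma). NDUFV1, the subunit that binds NADH, read -0.20 and -0.40. A further 4 core genes were above 0 with siRNA 1 and below 0 with siRNA 2: NDUFV2 read 0.22 and -0.14, NDUFS3 0.16 and -0.23, NDUFS8 0.056 and -0.089, and the NDUFS7 probes 0.24 and 0.30 with siRNA 1 and -0.096 and -0.15 with siRNA 2.

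Among accessory subunits of complex I, NDUFA7 was highest among the bright probes at 0.54 and 0.28, and NDUFA3 read 0.41 and 0.27. NDUFC2 had the highest mean of all members, but only by its dim probe, at 0.64 and 0.71 (mean 0.67 ± 0.095, SE; adjusted p = 0.104 in limma), with a log2 intensity of 7.59. Its bright probe, at 13.7, read 0.21 and -0.23, so the 2 probes of this gene do not give 1 direction. NDUFB4 stood out with siRNA 1 alone, at -0.57 against -0.021 with siRNA 2, the largest positive gap between the siRNAs among members (0.55). A probe described as a copy of NDUFB4 (LOC402175) read -0.38 and 0.051, and RefSeq names 12 pseudogenes after this gene.

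Complex II was the complex whose median was below 0 with both siRNAs, at -0.33 and -0.22, and 10 and 9 of its 12 probes were below 0. For the 8 probes of the 4 subunit genes alone the medians were -0.37 and -0.22, all 8 being below 0 with siRNA 1 and 6 with siRNA 2. Relative to all kept probes the complex stood at -0.34 and -0.23, but at -0.12 and -0.16 with 1 probe per gene name and at -0.11 and -0.16 with the probes of a gene averaged. SDHA, the flavoprotein that oxidises succinate, had log2 signals of 10.48 (Non-T) and 10.10 (siRNA 1), and of 10.42 (Non-T) and 10.00 (siRNA 2) on its brighter probe. Its 2 probes read -0.46 and -0.38 with siRNA 1 and -0.57 and -0.42 with siRNA 2, with means of -0.51 ± 0.097 and -0.40 ± 0.094 (SE; adjusted p = 0.117 and 0.136 in limma).

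The 4 probes of SDHD, a membrane anchor, lay between -0.41 and -0.20 for siRNA 1, and between -0.25 and 0.033 for siRNA 2. A probe described as a copy of SDHD (LOC641844) read -0.45 and -0.34. SDHB, the iron-sulphur subunit, read -0.093 and -0.28. SDHC, the other anchor, read -0.065 and 0.014. Both values lay within the spot SD, as did the 0.033 of 1 SDHD probe with siRNA 2. Sequences close to SDHA did not read alike. The 2 probes named SDHALP1 read -0.39 and -0.31 with siRNA 1 and -0.50 and -0.36 with siRNA 2, values near those of SDHA. SDHAP3, in contrast, read 0.34 and 0.37. The 2 probes of LOC220729, described as a copy of SDHA, read -0.22 and 0.13 with siRNA 1. They read -0.13 and -0.071 with siRNA 2. Reads of SDHA and SDHD and of their copies cannot be told apart without probe sequences. At an unadjusted p under 0.05, 6 of the 12 probes of complex II were lower (2 of SDHA, 2 of SDHALP1 and 2 of SDHD), against 2702 of 25673 kept probes, though several of these probes lie on the same or near-identical transcripts.

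Complex III had 10 kept probes, with medians of 0.018 with siRNA 1 and -0.28 with siRNA 2, and 9 of 10 were lower with siRNA 2. Relative to all kept probes the siRNA 2 median was -0.30, but it was -0.080 with 1 probe per gene name, -0.19 with probes averaged and -0.050 with median centring. The Rieske iron-sulphur protein UQCRFS1 read -0.14 and -0.0046 with siRNA 1 and -0.46 and -0.28 with siRNA 2. The core protein UQCRC2 read 0.041 and -0.44, whereas the other core protein, UQCRC1, read 0.11 and 0.052. The small subunit named UQCR on the array (UQCR11 in RefSeq) had the lowest mean of the complex, -0.35 ± 0.11 (SE; adjusted p = 0.195 in limma), from a probe at -0.21 and -0.49, and its brighter probe read -0.047 and -0.37. UQCRQ was the 1 probe higher with siRNA 2 than with siRNA 1, at 0.14 and 0.22.

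Complex IV had 20 kept probes, with medians of 0.092 with siRNA 1 and -0.0011 with siRNA 2, and 13 and 10 above 0. COX4I1, the common form of the regulatory subunit, was lower with siRNA 1 than with siRNA 2, unlike most members. Its bright probe had log2 signals of 13.56 (Non-T) and 12.95 (siRNA 1), and of 13.43 (Non-T) and 13.24 (siRNA 2). Its 2 bright probes read -0.61 and -0.50 with siRNA 1 and -0.18 and -0.11 with siRNA 2, while a dim further probe read 0.012 and 0.11. COX4NB, the neighbour of COX4I1 on chromosome 16 and a subunit of an endoplasmic reticulum complex (EMC8 in RefSeq), read -0.35 and -0.47, the lowest mean under the COX prefixes.

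Of 7 listed forms known for muscle, lung, testis or low-oxygen cells, 6 were on the array and only COX6A2 and COX6B2 had a kept probe. COX6A2, the heart and muscle form, was measured at log2 signals of 14.66 (Non-T), 15.04 (siRNA 1), 14.58 (Non-T) and 14.89 (siRNA 2), among the brightest members, with log2 ratios of 0.37 and 0.30. Another probe described as COX6A2 was not well above background in any channel. COX6B2, the testis form, read 0.36 and 0.11 at a log2 intensity of 6.79.

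The gap between the siRNAs was shared by most complexes. The log2 ratio was lower with siRNA 2 than with siRNA 1 for 92 of 117 member probes (78.6%), against 12831 of all 25673 kept probes and 51.4% of the brightest 25% of them. The median difference was -0.14 for complex I, -0.0093 for complex II, -0.27 for complex III, -0.14 for complex IV and -0.31 for complex V, against 8.81e-05 for all kept probes. The Cy3 signals of the members differed by a median of -0.0040 between the arrays and the Cy5 signals by -0.14, so the gap lay mostly in the knockdown channels. Members shared a slide, a dye order and possibly a control extract, and with 1 array per siRNA this gap was not tested.

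**Figure D4:**
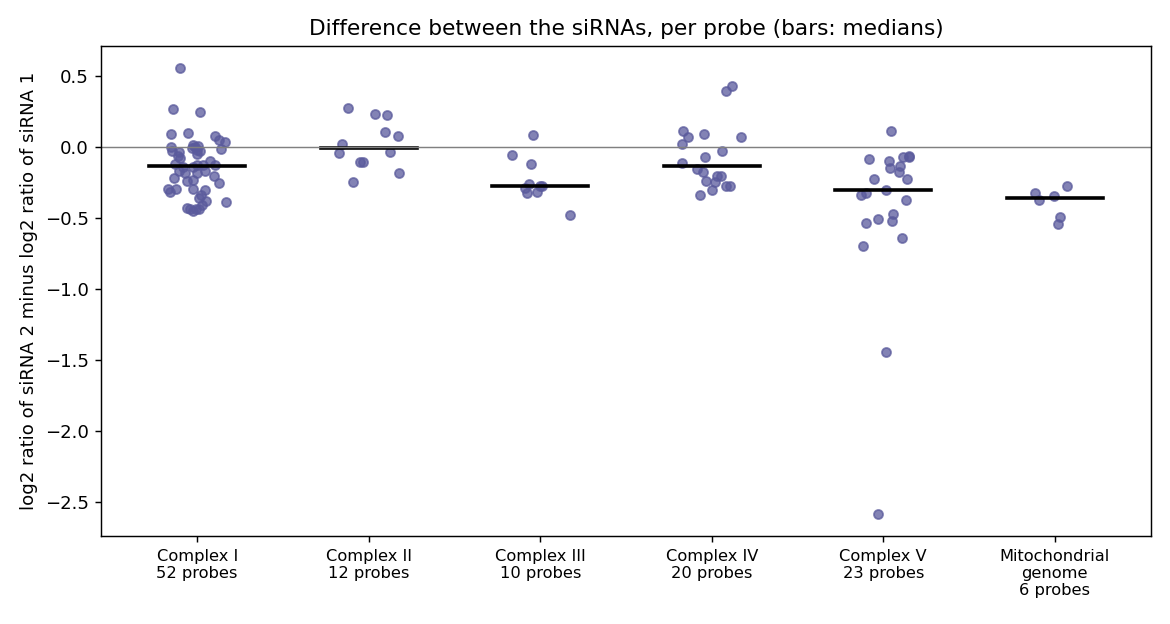
Log2 ratio with SUB1 siRNA 2 minus that with SUB1 siRNA 1 (y axis) for each kept member probe by complex and for 6 probes of the mitochondrial genome (x axis); bars are medians. Complex II centres on 0, at -0.0093, and complex V at -0.31, with the 2 ATP5L probes at -1.44 and -2.58.

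Subunits encoded in mitochondrial DNA fall outside the name rule. The 6 probes placed on the mitochondrial genome (ND1, ND2, 2 of ND3, ND5 and ND6, all of complex I) had medians of 0.15 with siRNA 1 and -0.18 with siRNA 2. All 6 were below 0 with siRNA 2 and lower than with siRNA 1, the differences lying between -0.54 and -0.28.

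Because members were bright (median log2 intensity 11.9), their medians were also set against the brightest 25% of kept probes. On that scale complexes I to V stood at 0.13, -0.32, 0.025, 0.099 and 0.13 with siRNA 1, and at -0.030, -0.21, -0.28, 0.0068 and -0.15 with siRNA 2. Without loess, with each array only centred on its median, the brightest 25% stood at 0.26 and 0.27. Relative to all kept probes complexes I and IV then turned from -0.053 and -0.016 to 0.14 and 0.15 with siRNA 2, and complex V stood at -0.068. Against the brightest 25% the median-centred values were 0.17, -0.41, 0.074, 0.093 and 0.16 with siRNA 1 and -0.023, -0.29, -0.22, -0.021 and -0.23 with siRNA 2. Complex II with both siRNAs and complexes III and V with siRNA 2 were below both references in all 8 ways of processing plotted next.

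**Figure D5:**
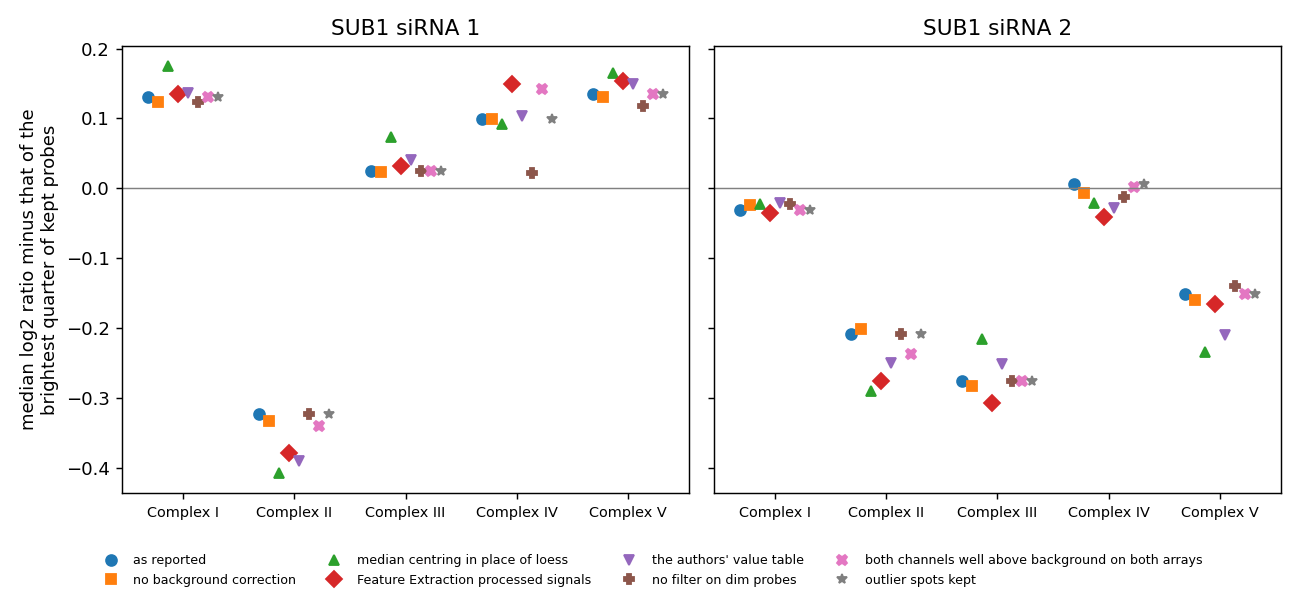
Median log2 ratio of each complex minus that of the brightest 25% of kept probes (y axis, log2) under 8 ways of processing (symbols), for SUB1 siRNA 1 (left) and SUB1 siRNA 2 (right). Complex II lies below 0 in both panels, and complexes I, III and V only in the right one. There complex I lies close to 0, from -0.036 to -0.021.

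Probes of 1 gene mostly gave like values. For the 31 genes with more than 1 kept probe, the median range between probes was 0.14 with either siRNA, and it was under 0.3 for 26 genes with siRNA 1 and for 27 with siRNA 2. The widest ranges were 0.62 with siRNA 1 (COX4I1) and 1.28 with siRNA 2 (ATP5L), and in both genes the brighter probe was the lower one.

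Genes that build or serve the chain were taken as 4 further lists, given by counts and medians. Of 45 kept probes of assembly factors, none passed 2-fold with siRNA 1, and 1 was 2-fold lower with siRNA 2 (0.923% of all kept probes were). That probe belonged to COX15, which makes haem A for complex IV, and it read -0.60 and -1.22, while its second probe read -0.029 and -0.49. The medians were 0.043 and -0.052, and at an unadjusted p under 0.05 in limma 5 probes were higher (10.7% of all kept probes were) and 7 lower (10.5% of all).

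Of 22 probes of electron carriers and of subunits outside the name rule, none passed 1.5-fold, and the medians were 0.042 and -0.031. The probe farthest from 0 was that of PDSS1, an enzyme of ubiquinone synthesis, at -0.39 and -0.56. CYC1, the cytochrome c1 subunit of complex III, read 0.12 and -0.22.

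Of 28 probes of the tricarboxylic acid cycle, 22 were lower with siRNA 2 than with siRNA 1 (12831 of all 25673 kept probes were), and the medians were 0.026 and -0.19. IDH2, mitochondrial isocitrate dehydrogenase, had the lowest mean, from -0.69 and -0.80 (mean -0.75 ± 0.097, SE; adjusted p = 0.104 in limma). A probe of DLAT, a subunit of pyruvate dehydrogenase, was 2-fold lower with siRNA 1 (0.557% of all kept probes were), at -1.04, and read -0.0035 with siRNA 2. The 2 other DLAT probes read -0.39 and -0.30 with siRNA 1 and -0.26 and -0.30 with siRNA 2, so they did not show that gap.

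The 19 probes of regulators of the nuclear respiratory genes had medians of 0.035 and 0.085. TFAM, which packages and transcribes mitochondrial DNA, had 3 kept probes, between 0.035 and 0.44 for siRNA 1 and between 0.21 and 0.33 for siRNA 2. The 3 probes under the array name GABPB2 disagreed, at -0.14, -0.052 and 0.46 with siRNA 1 and -1.02, 0.082 and 0.55 with siRNA 2. No probe of the 4 lists passed an adjusted p of 0.05.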

How the data were processed

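RNA of PC3 cells was hybridised to 2 Agilent arrays (design 014850, coordinates hg18). The authors deposited the intensity of each spot and of its background in both channels (Feature Extraction 9.5.1.1), and a table of log2 ratios made by loess on each array, used here as an alternative only; its correlation with the ratios here was 0.960 (siRNA 1) and 0.970 (siRNA 2). Mean intensities were corrected by normexp (offset 50) on all spots, control spots were dropped, and loess (span 0.3) was run on each array in limma 3.58.1 (R 4.3.3). Outlier spots (112 and 100) were left out and spots of a probe averaged. The filter asked, on each array, that a share of 0.5 or more of a probe's spots be flagged well above background in 1 or both channels. Log2 ratios are Cy5 over Cy3, and printed log2 signals were made comparable between arrays by Aquantile, which leaves ratios as they are. The mean over both siRNAs was tested against 0 (lmFit, eBayes, Benjamini-Hochberg over all kept probes), after a trial on simulated data. Members, lists and motifs were chosen with earlier results of these data known. Named members were those past 2-fold, the extremes of each complex, the 5 highest and lowest means, the 3 largest differences between siRNAs each way, the core of complex I, complex II, tissue forms, genes whose probes differ most, and the strongest probe of each list; further members were named after their values were seen. The number of arrays limits the precision. The single values of some genes are not reported here.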

Additional observations from a re-analysis of the deposited data

Results flagged for a closer look

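Some results were singled out because the array of SUB1 siRNA 1 and that of SUB1 siRNA 2 moved opposite ways; with 1 array per siRNA none of these differences was tested. Relative to all kept probes, the median log2 ratio of all members was 0.053 with siRNA 1 and -0.087 with siRNA 2, a difference of -0.14. For complex I it was 0.11 and -0.053 (difference -0.16), for complex III 0.0041 and -0.30 (difference -0.30), for complex IV 0.078 and -0.016 (difference -0.094), and for complex V 0.11 and -0.17 (difference -0.29). The ATP5G3 probe A_23_P56680 differed by -0.64, and the ATP5L probes A_23_P75622 and A_24_P96527 by -2.58 and -1.44.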

How the results depend on the processing

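Of 504 values of named probes under other ways of processing, 25 changed sign, none of them past 1.5-fold as reported and none above 0.28 in size. The bright ATP5L probe kept between -2.53 and -2.14 with siRNA 2, and the other between -1.36 and -1.06. The medians below are relative to all kept probes, siRNA 1 before siRNA 2, and the cause of a change was not tested. With median centring in place of loess all members stood at 0.25 and 0.11, complex I at 0.33 and 0.14, II at -0.26 and -0.12, III at 0.22 and -0.050, IV at 0.24 and 0.15, and V at 0.31 and -0.068. The electron carriers stood at 0.14 and 0.033 and the regulators at 0.22 with siRNA 2; at 1.5-fold 17 and 8 members were higher and 0 and 2 lower. With Feature Extraction's processed signals complex II stood at -0.31 with siRNA 2 and the tricarboxylic acid cycle at -0.077 and -0.34. The electron carriers then stood at -0.14 and the regulators at 0.20 with siRNA 2. In this setting 2 members were 2-fold higher and 4 past 1.5-fold with siRNA 1, and 1 was 2-fold higher with siRNA 2. The 2 were the COX6A1 and SDHALP2 probes that were well above background only in Cy5, and the 1 was the dim NDUFC2 probe. By the log2 ratios of the authors, 2 members were 1.5-fold higher and 0 lower with siRNA 1, and with siRNA 2 complex III stood at -0.22 and complexes I and IV turned to 0.013 and 0.0071. With no filter 1 member (the dim NDUFC2 probe) passed an adjusted p of 0.05 (0.0409, in limma), among 577 of 40999 probes. With both channels required the regulators stood at 0.15 with siRNA 2. With 1 probe per gene name complex II stood at -0.12 with siRNA 1, III at 0.090 and -0.080, V at 0.034 and -0.33, and the regulators at -0.099 with siRNA 1; 0 and 0 members were 1.5-fold higher, and 1 was 2-fold lower with siRNA 2. With the probes of a gene averaged complex II stood at -0.11 and -0.16, III at 0.083 and -0.19, and V at -0.28 with siRNA 2; 0 and 0 were 1.5-fold higher, 0 and 3 lower, and 1 was 2-fold lower with siRNA 2. Without the ATP5L probes, chosen after the data were seen, 0 members were 2-fold lower with siRNA 2, and leaving out the pseudogenes or the members not known as subunits changed no count by over 1.5 times. No background correction, kept outlier spots, and a trend or robust prior moved no median by more than the spot SD and no count of members by over 1.5 times.

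No paired analysis was possible because knockdown and control already share an array, and there is 1 array per siRNA. Leaving out an array would leave 1 with no residual degrees of freedom, so it was not run. Both arrays share a slide, dim probes near background have compressed ratios, and each member has 1 spot, so differences near 0.08 are not resolved. The SD between spots leaves out the spread between arrays and between extracts, so larger differences need not be resolved either.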
